A study of Mus musculus with 6 samples.

Results

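The 9 genes described here make, activate, receive or read the signal of transforming growth factor beta (TGF-beta) in immune cells of mouse mammary tumours. They are the ligand Tgfb1, the integrin chains Itgav and Itgb8, the receptors Tgfbr1 and Tgfbr2, the signal transducer Smad3, the inhibitor Smad7, the repressor Ski and the induced gene Tgfbi. They were taken by symbol, joined between libraries by Ensembl identifier, and all 9 were found among the 30406 genes that the 6 libraries share.

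Droplet 3′ libraries were made from single, live CD45+ cells sorted out of tumours that female mice grew from Py8119, a mouse mammary tumour cell line. There were 6 groups with 1 library each: intact Mtdh KO mice, intact Mtdh wild type (WT) mice, and 4 kinds of irradiated mice in which Mtdh KO or WT bone marrow was given to an Mtdh KO or WT host. All received the same tumour cells, the transplanted ones 8 weeks after marrow transfer, and tumours were taken after 4 weeks. The labels say neither how many mice stand behind a library nor how the Mtdh deletion was made, and irradiation can leave immune cells of the host in place. An intact mouse counts below as having the same genotype in host and marrow. With 1 library a group, spread within a group was not measured, and every test rests on differences between libraries.

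TGF-beta is secreted in a latent complex in which a propeptide shields the active dimer. Integrins that bind this propeptide, among them the pair formed by the Itgav and Itgb8 products, release or expose the active part. The freed ligand joins the Tgfbr2 and Tgfbr1 receptors, Smad2 and Smad3 carry the signal to the nucleus, Smad7 and Ski damp it, and matrix protein genes such as Tgfbi are switched on. In tumours the pathway is known for restraining T cells and shaping macrophages, and regulatory T cells are a known site of Itgb8 expression.

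In the GRCm38 (mm10) annotation, GENCODE release M21, each of the 9 is a protein-coding gene. Itgb8 lies on the minus strand at chr12:119158022-119238802, Itgav lies on the plus strand at chr2:83724397-83806916 and Tgfbi lies on the plus strand at chr13:56609523-56639562. Tgfb1 lies on the plus strand at chr7:25687002-25705077, Tgfbr1 lies on the plus strand at chr4:47353222-47414931, Tgfbr2 lies on the minus strand at chr9:116084293-116175360, Smad3 lies on the minus strand at chr9:63646767-63757994 and Ski lies on the minus strand at chr4:155154075-155222592. For the integrin chains, on which the CD8 T cell results turn, and for Tgfbi, the gene that this pathway is known to induce, the 250 bases before the RefSeq start site follow. They run 5′ to 3′ on the gene's strand, on GRCm38.p6. RefSeq and GENCODE place some start sites differently. The Itgb8 window lies inside the GENCODE span given above, and the Tgfbi window runs into its span. Capitals mark the Smad binding string CAGAC, or GTCTG where it reads on the other strand.
Itgb8, minus strand, chr12:119238277-119238526: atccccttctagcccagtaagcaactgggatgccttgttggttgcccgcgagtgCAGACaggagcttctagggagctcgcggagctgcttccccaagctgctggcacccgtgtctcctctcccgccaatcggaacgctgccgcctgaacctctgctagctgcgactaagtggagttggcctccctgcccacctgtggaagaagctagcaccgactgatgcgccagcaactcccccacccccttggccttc
Itgav, plus strand, chr2:83724147-83724396: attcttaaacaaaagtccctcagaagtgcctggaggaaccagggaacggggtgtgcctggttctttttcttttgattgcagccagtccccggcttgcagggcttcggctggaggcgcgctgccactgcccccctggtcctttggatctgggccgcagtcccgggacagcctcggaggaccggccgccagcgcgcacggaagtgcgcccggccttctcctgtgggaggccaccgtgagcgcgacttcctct
Tgfbi, plus strand, chr13:56609336-56609585: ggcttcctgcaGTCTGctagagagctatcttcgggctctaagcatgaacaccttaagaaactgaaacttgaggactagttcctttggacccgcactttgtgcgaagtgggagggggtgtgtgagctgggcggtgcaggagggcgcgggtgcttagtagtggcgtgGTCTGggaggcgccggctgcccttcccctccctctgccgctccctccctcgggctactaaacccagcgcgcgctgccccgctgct

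The Itgb8 stretch held 1 such string, the Itgav stretch 0 and the Tgfbi stretch 2. Of all 32851 promoter windows of this length, 42.2% held at least 1 on either strand, so its presence is common. The Smad palindrome GTCTAGAC, which holds the shorter core GTCT on both strands but neither string above, and the AP-1 string TGANTCA were in none of these 3 windows, and they were in 0.167% and 6.75% of all windows. These matches describe letters in the windows and no binding was measured.

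Smad7 lies on the plus strand at chr18:75367529-75395935 in the same annotation.

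Of 41267 barcodes, 37996 cells were kept, and 217 barcodes occurred in more than 1 library. Total counts were 85616443 to 142779550 unique molecular identifiers (UMIs, 1 per captured RNA molecule) per library. Cells were sorted by marker UMIs into 13 classes, from 25407 macrophages down to 77 cDC2 cells, with 83.3% of cells in 1 class. Levels below are CPM, the UMIs of a gene per 1000000 UMIs of that class in that library, and libraries are listed in the order intact, KO marrow, WT marrow within KO hosts and then within WT hosts. The targeted gene Mtdh followed the marrow label in macrophages, at 16.1, 13.4 and 20.8 CPM with KO marrow (intact KO, KO host, WT host) and 111 to 113 CPM otherwise. CD8 T cells did the same, at 14.5 to 23.6 against 70.3 to 85.7 CPM. In KO marrow in WT host it went against the label in B cells (86.9 CPM), regulatory T cells (87.0 CPM) and mature dendritic cells (114 CPM), so for marrow genotype only counts of genes are given there. Gamma-delta T cells of WT marrow in KO host, 7 in number, had 20.2 CPM, against 122 CPM in intact WT and 119 CPM in WT marrow in WT host. The mesenchymal-like class kept 399.5 to 458 CPM of Mtdh in every library and only 3.88 to 11.1 CPM of Ptprc, the gene of CD45.

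Levels set between intact and transplanted libraries carry a further difference. For Tgfbr1 and Smad3 both intact libraries lay above all 4 transplanted ones in 11 of 13 classes, with a median ratio of intact to transplanted means of 2.86 and 4.47. The same held in 8 of 13 classes for Itgav and for Tgfbr2, in 5 for Ski, in 2 for Tgfb1 and for Itgb8, and in 0 for Smad7 and for Tgfbi, whose median ratio was 1.01. The authors used a different Cell Ranger version for the intact libraries, so software and transplantation cannot be told apart, and every fit below has a term for it.

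The genes differed in where they were found. Tgfbi was highest in myeloid cells, Itgb8 in regulatory T cells followed by mesenchymal-like cells, Itgav was highest in regulatory T cells, Smad7 was high in T cells and low in myeloid cells, and Tgfb1 was found in every class. The median over the 6 libraries for Tgfbi was 1187 CPM in monocytes, 788 in macrophages, 328 in neutrophils, 227 in cDC2 cells, 76.9 in cDC1 cells and 35.8 or less in the 8 other classes. For Smad7, the inhibitor that feeds back on the receptors, the medians ran from 395 CPM in regulatory T cells, 342 in conventional CD4 T cells and 256 in CD8 T cells down to 73.1 in macrophages and 51.5 in monocytes. The plot of levels by class shows that the library points of neighbouring classes often overlap.

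**Figure D1:**
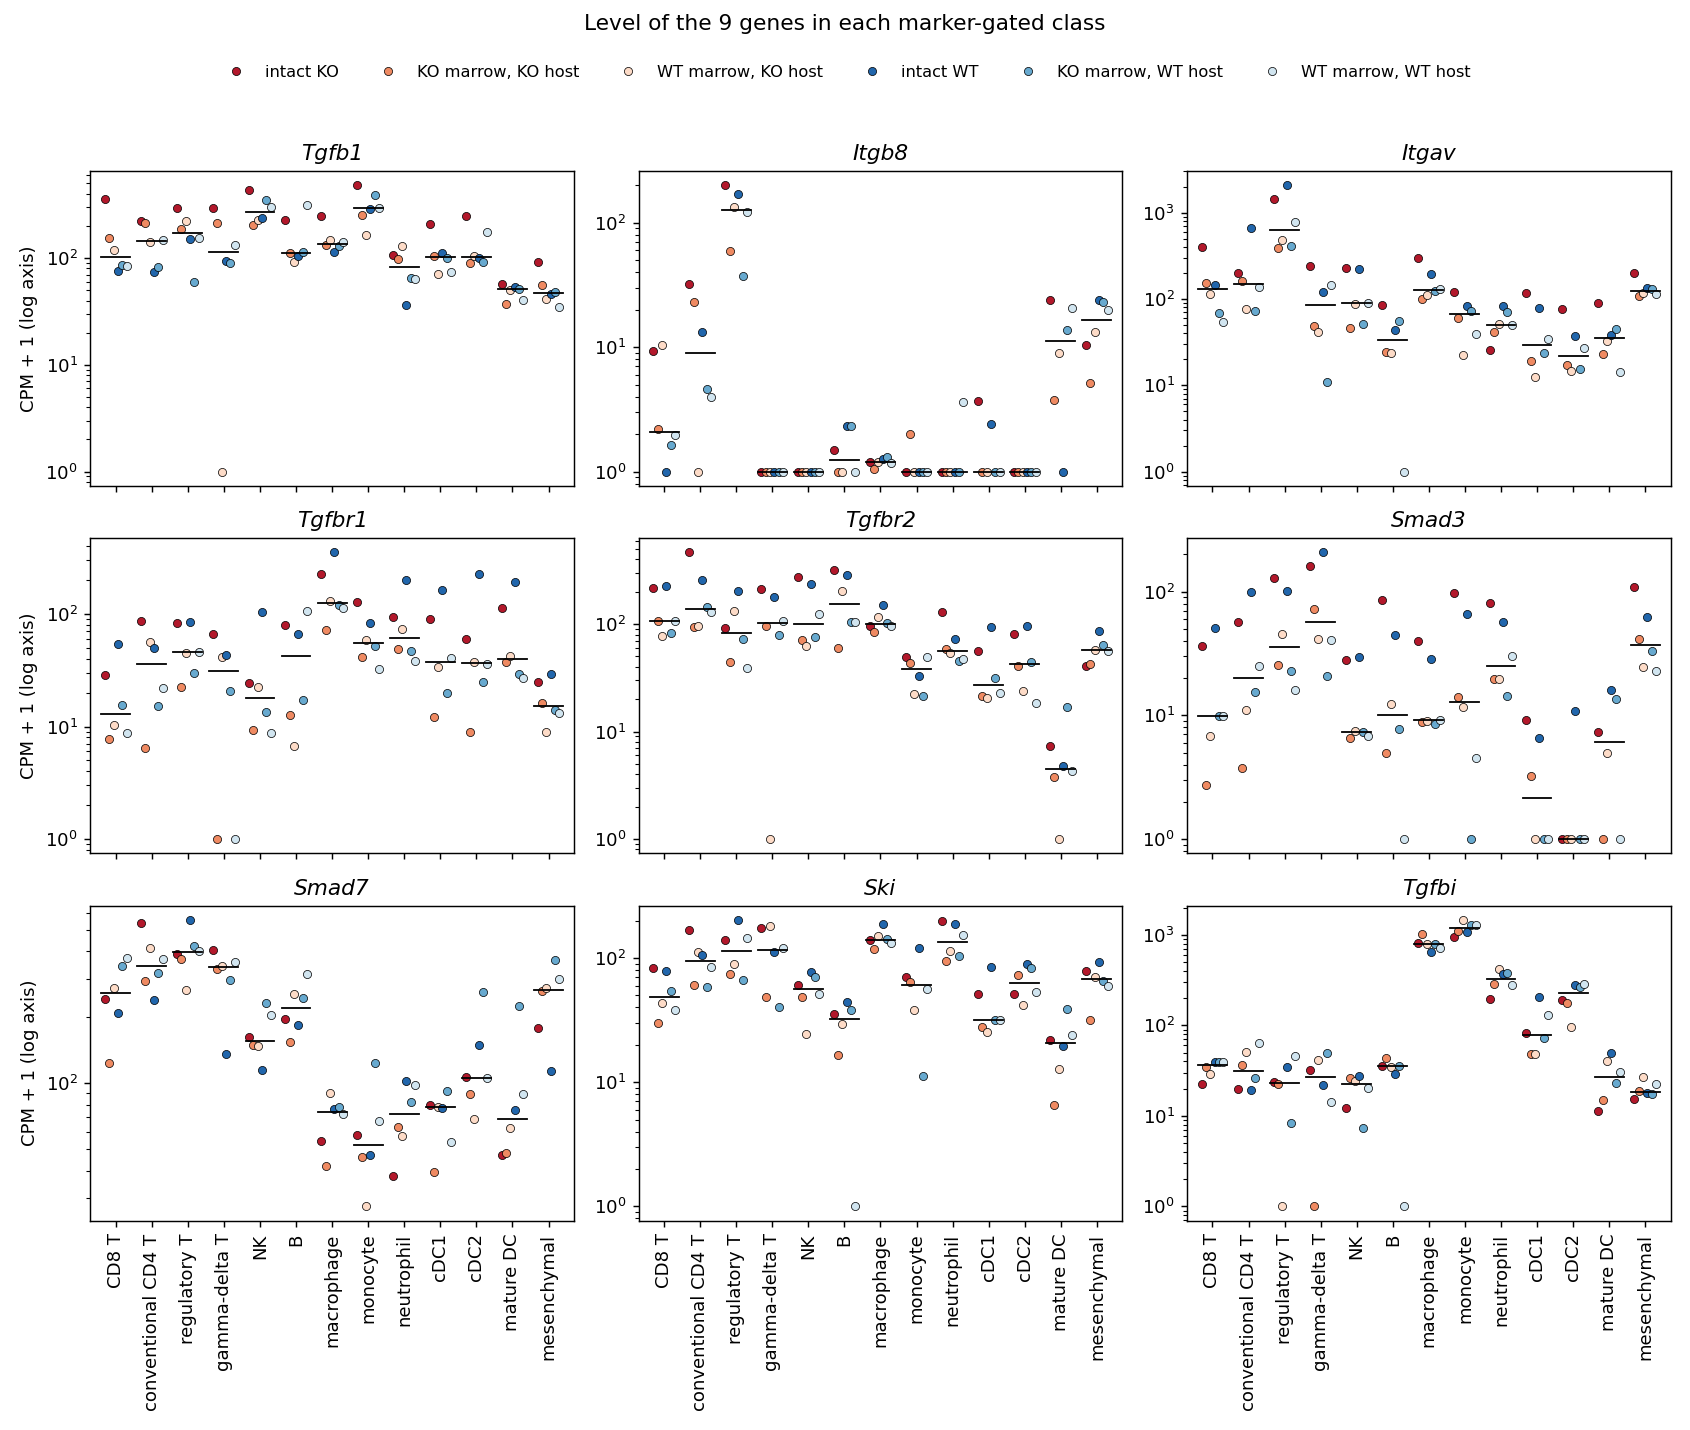
Level of each of the 9 genes (CPM + 1, log axis) in 13 marker-gated classes; each point is 1 library, red shades are KO hosts, blue shades WT hosts, and the black line is the median of 6. Tgfbi is high in monocytes and macrophages, Itgb8 and Itgav in regulatory T cells, and the intact libraries are often the highest points for Tgfbr1 and Smad3; a point at 1 is a library with 0 UMIs.

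The type I receptor gene Tgfbr1 was highest in macrophages, with a median of 124 CPM, and lowest in CD8 T cells, with 11.9. The type II receptor gene Tgfbr2 was instead highest in B cells at 154 CPM, followed by conventional CD4 T cells at 136 and CD8 T cells at 106, and lowest in mature dendritic cells at 3.50. Smad3, which carries the signal, had its highest median in gamma-delta T cells (55.8 CPM) and 8.09 CPM in macrophages. Ski, which represses Smad targets, was highest in macrophages (139 CPM) and neutrophils (133 CPM), whose library ranges overlapped. Tgfb1 had its highest medians in monocytes (290.4 CPM) and NK cells (267 CPM) and its lowest in mesenchymal-like cells (45.7 CPM).

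Between classes, 6 pairs were compared for the 9 genes within each library by an exact two-sided sign-flip permutation test on log2(CPM + 10), 54 comparisons in all. With 6 libraries the smallest possible p is 0.03125, and after Benjamini-Hochberg adjustment over the 54 the smallest value was 0.0734, so 0 of 54 passed and the order of classes is given as counts of libraries. Macrophages lay above CD8 T cells for Tgfbr1 in 6 of 6 libraries, with a mean log2 difference -2.58 ± 0.22 (SD, n = 6) for CD8 T cells minus macrophages. For Smad7 the order was the opposite in 6 of 6, mean log2 difference 1.74 ± 0.38 (SD, n = 6). Monocytes lay above macrophages in 6 of 6 for Tgfbi, mean log2 difference -0.58 ± 0.32 (SD, n = 6) for macrophages minus monocytes, and for Tgfb1. Macrophages lay above monocytes in 6 of 6 for Itgav, Tgfbr1, Tgfbr2 and Ski.

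Tgfbi in CD8 T cells was near the level that free RNA from macrophages can give. Its level there was 2.65 to 5.92% of the macrophage level in the same library. For macrophage genes T cells lack, the share was 2.66 to 3.37% for C1qa, 3.40 to 5.38% for C1qb and 2.42 to 3.78% for C1qc. It was 3.06 to 5.86% for Lyz2 and 4.23 to 6.09% for Apoe. The gate held C1q below 0.3% of a cell's UMIs, which limits the C1q shares. Within intact WT the Tgfbi share of 5.92% was above all of these genes, the highest being Lyz2 at 5.28%. In conventional CD4 T cells of WT marrow in WT host the Tgfbi share was 8.74%, against at most 5.27% for these genes. Tgfbi is not read as expression in CD8 T cells, and the part of free RNA in it was not tested. Tgfbr1 in CD8 T cells was 6.97 to 15.1% of the macrophage level, above the highest share of those genes.

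Itgb8, the chain that gives the integrin its specificity for latent TGF-beta, was sparse, with 1124 UMIs in all kept cells. Regulatory T cells had 199.9, 58.4 and 132 CPM for KO hosts against 168, 36.3 and 121 CPM for WT hosts, where the lowest library value rests on 28 cells and WT marrow in KO host on 4 cells. In that class 29.9% of 177 cells had an Itgb8 UMI, and each KO host was above the WT host of the same label for marrow or intact status, although the ranges overlapped and the label of KO marrow in WT host is not borne out by Mtdh in this class. Conventional CD4 T cells had 31.2, 21.9 and 0 CPM for KO hosts against 12.2, 3.57 and 3.004 CPM for WT hosts. These rest on 27 UMIs in 15 of 350 cells, and the 0 on 28 cells. Their gate asked for 0 Foxp3 UMIs, and the part of regulatory T cells without such a UMI was not tested. Mesenchymal-like cells had 9.46, 4.15 and 12.2 CPM for KO hosts against 22.8, 22.2 and 19.0 CPM for WT hosts, and there the 3 KO hosts were all below the 3 WT hosts; with 17 cells in the smallest library this class was not tested. Mature dendritic cells had a median of 10.3 CPM, from 26 UMIs in 12 of 204 cells. There KO hosts ran from 2.78 to 23.0 CPM and WT hosts from 0 to 19.6 CPM, and the KO host was higher in 1 of 3 pairs. NK, gamma-delta T and cDC2 cells had 0 Itgb8 UMIs in every library. With 209, 137 and 77 cells over all libraries, these zeros do not show absence.

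In CD8 T cells 45 Itgb8 UMIs came from 26 of 2088 cells, with at most 5 UMIs in 1 cell. The UMIs numbered 23, 12 and 8 in the KO hosts and 0, 1 and 1 in the WT hosts, which is 8.35, 1.21 and 9.35 CPM for KO hosts against 0, 0.629 and 0.976 CPM for WT hosts. All 3 KO hosts were above all 3 WT hosts, but KO marrow in KO host, at 1.21 CPM, was close to WT marrow in WT host, at 0.976 CPM, and their exact Poisson 95% intervals of 0.627 to 2.12 and 0.0247 to 5.44 CPM overlapped. The 0 of intact WT, over 75 cells, allows up to 5.71 CPM (3 UMIs). In KO hosts the 24 CD8 T cells with an Itgb8 UMI were set beside the 1608 without. The regulatory T cell genes Il2ra and Ikzf2 were higher in them, at 164 against 42.3 CPM and 312 against 258 CPM. Itgav was higher too, at 382 against 198 CPM. The effector gene Gzmb was lower, at 707 against 1914 CPM, as was Cd8a, at 756 against 920 CPM. These cells were pooled over libraries, and the differences were not tested.

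The host difference of Itgb8 did not pass the test across all genes in the gated cells: edgeR gave a KO minus WT host log2 3.62, SE 1.34, adjusted p = 0.233, a value that depends on the prior count since 1 library was at 0. Itgb8 entered this test through its counts in the KO hosts, so the value gives no support for a host difference. With every gene of at least 1 UMI tested it was log2 3.58 (adjusted p = 0.0543), which did not pass either. Marrow genotype gave log2 -2.22, SE 1.11, adjusted p = 1.0. The call depended on how CD8 T cells were defined. In CD8 T clusters the log2 value was 4.14 (adjusted p = 0.0425), which passed in edgeR, and in the same clusters without cells gated as conventional CD4 or regulatory T it was 4.38 (adjusted p = 0.0737), which did not. Over its 9 alternatives the adjusted p ran from 0.0425 to 0.921. Those clusters held 126 Itgb8 UMIs, of which 53 were among 52 cells gated as regulatory T (18 of them with a UMI), 42 in cells gated as CD8 T, 21 in cells of no gate and 10 in conventional CD4 T cells. Without WT marrow in KO host the gated value was log2 1.03 (adjusted p = 0.921) in edgeR.

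The share of CD8 T cells with an Itgb8 UMI was 3.57, 0.725 and 4.82% for KO hosts and 0, 0.417 and 0.709% in the WT hosts, and the 0 of 75 cells in intact WT allows a share of up to 4.0%. Macrophages, with 17104 UMIs per cell in the median against 6792 in CD8 T cells, had 0.0762% to 0.465%. The 0.417% of KO marrow in WT host lies within that macrophage range, while the 0.709% of WT marrow in WT host and the 0.725% of KO marrow in KO host lie above it at a lower depth per cell. The mean difference of 2.66 percentage points had p = 0.1 in an exact permutation test (two-sided, 3 libraries against 3), the smallest p that this design allows. The exact permutation test gave p = 0.3 in CD8 T cells without UMIs of Lef1, Ccr7 or Tcf7 and p = 0.2 in CD8 T clusters. In cells without those UMIs KO marrow in KO host had 0.288%, below the 1.08 and 1.33% of the transplanted WT hosts. In clusters intact WT, at 3.29%, was above KO marrow in KO host, at 0.754%. The host groups thus overlapped under both definitions. After thinning each cell to 3000 UMIs the KO host shares were 1.03, 0.260 and 3.66% and the WT host shares were all 0. Thinning left 291, 1152 and 82 KO host cells and 70, 231 and 138 WT host cells, the shallower ones being left out, and macrophages then had 0 to 0.131%.

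Itgav, the partner chain that several TGF-beta binding integrins share, was the one gene of the 9 that passed the test in CD8 T cells for host genotype. It stood at 402, 153 and 112 CPM for KO hosts against 145, 67.9 and 52.7 CPM for WT hosts. Each KO host was above the WT host with the same marrow or intact status, while the transplanted KO hosts and intact WT overlapped across the intact and transplanted libraries. The edgeR fit, with its term for transplantation, gave log2 1.07, SE 0.18, adjusted p = 0.00397 (Benjamini-Hochberg over 8720 genes). Of all genes tested, 2.05% were called and 1.39% were called higher and 0.665% lower, beside 1 of 9 members called, higher. The call held without each library in turn and in the transplanted libraries alone, with log2 1.08 (adjusted p = 0.0294).

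**Figure D2:**
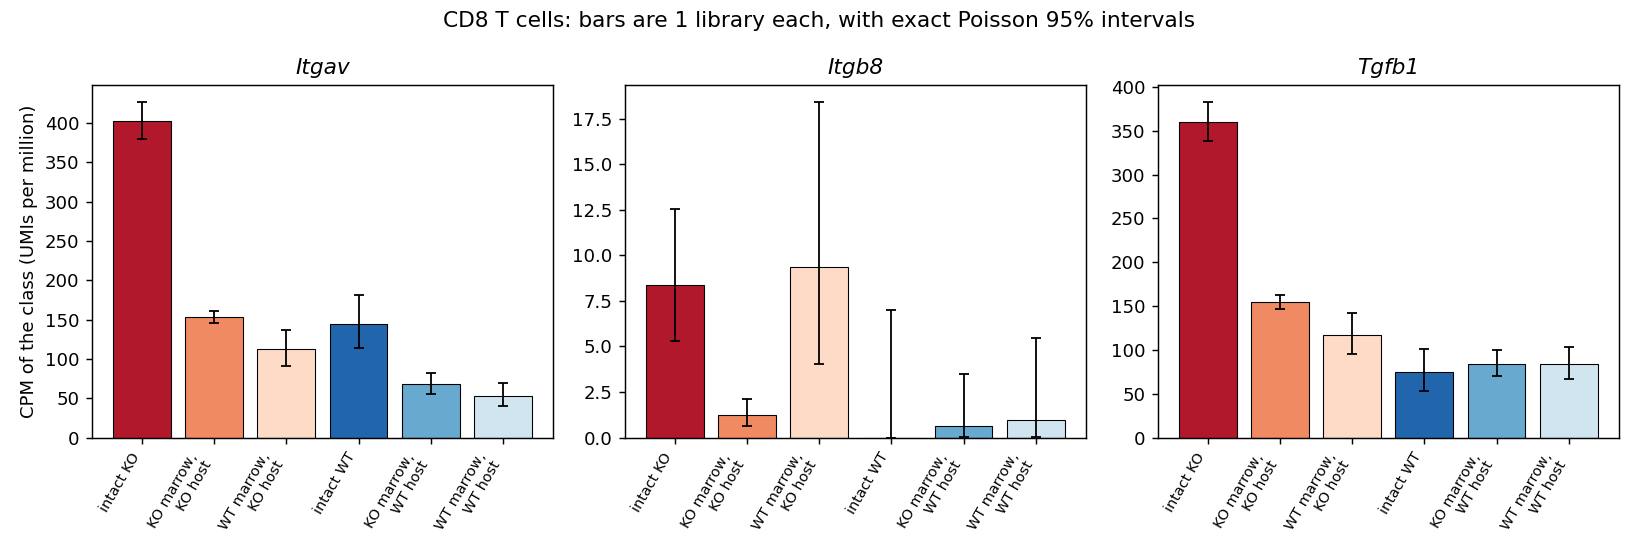
Levels of Itgav, Itgb8 and Tgfb1 in gated CD8 T cells (CPM, linear axes from 0); each bar is 1 library and its line the exact Poisson 95% interval, which covers counting error only. The KO hosts are the 3 bars on the left of each panel and the WT hosts the 3 on the right, with Itgb8 resting on 45 UMIs in all.

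Itgav was also read in CD8 T cells split by genes of naive cells. Those with UMIs of Lef1, Ccr7 or Tcf7, which are high in naive and central memory T cells, had 297, 132 and 77.7 CPM for KO hosts against 78.7, 29.4 and 40.6 CPM for WT hosts, and there the edgeR host value was log2 1.58 (adjusted p = 0.021). Cells without such UMIs had 484, 157 and 142 CPM for KO hosts against 342, 131 and 65.2 CPM for WT hosts, with log2 0.47 (adjusted p = 0.561), which did not pass. The difference between these subsets was not tested, and the smallest of these sums rests on 22 cells. In each library Itgav was higher in cells without such UMIs.

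The makeup of the class also moved with the host. Cells without these UMIs made up 51.0, 83.9 and 59.0% of KO host cells and 29.3, 38.8 and 53.2% of WT host cells, so the transplanted KO hosts had more of them than any WT host and intact KO was below WT marrow in WT host. Genes of regulatory T cells (Foxp3, Il2ra and Ikzf2) summed to 473, 269.9 and 149.6 CPM for KO hosts against 114, 79.9 and 103 CPM for WT hosts in gated CD8 T cells, all 3 KO hosts higher, with Foxp3 itself at 0 in every library since the gate excluded it. NK genes (3 genes) summed to 218, 266 and 149.6 CPM for KO hosts against 79.95, 113 and 137 CPM for WT hosts, and macrophage genes (6 genes) to 400.3, 491 and 716 CPM for KO hosts against 643, 701 and 601 CPM for WT hosts, with overlap in the latter. Taken singly, only 1 of the 3 regulatory T cell genes, 1 of the 3 NK genes and 0 macrophage genes had every KO host above every WT host. Their part in the Itgav result was not tested. In CD8 T clusters the Itgav host value was log2 0.65 (adjusted p = 0.466), and without cells gated as CD4 T or regulatory T log2 0.81 (adjusted p = 0.171), neither of which passed in edgeR. Over 15 alternatives its adjusted p ran from 2.79e-05 to 0.561.

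**Figure D3:**
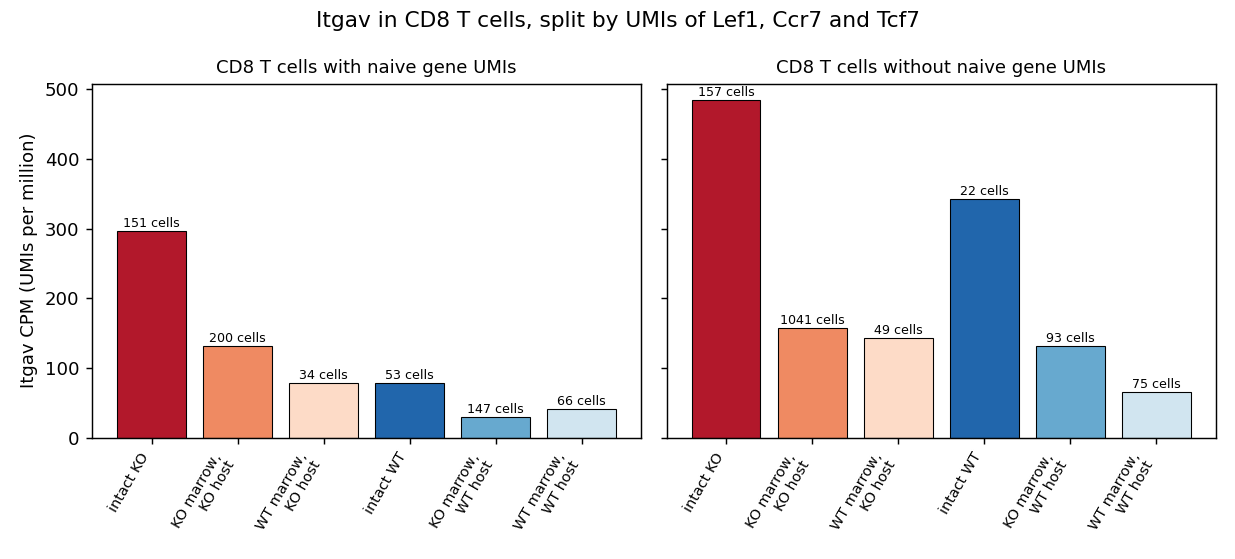
Itgav level (CPM, linear axis from 0) in gated CD8 T cells with and without UMIs of the naive genes Lef1, Ccr7 and Tcf7; each bar is 1 library, with its number of cells above it. Intact KO is the highest library in each panel, and KO and WT hosts overlap in both, in cells with these UMIs only where intact WT lies just above WT marrow in KO host.

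Tgfb1, the ligand, stood in CD8 T cells at 360.0, 154 and 117 CPM for KO hosts against 74.2, 84.3 and 84.0 CPM for WT hosts. All KO hosts were above all WT hosts, with intact KO far above the rest, yet the edgeR test was not passed (log2 0.95, SE 0.26, adjusted p = 0.107). Over 15 alternatives it passed in 3, those without a count filter and those leaving out 1 of the 2 libraries with WT marrow in a transplanted host. In neutrophils the KO hosts were again all higher, at 105, 97.6 and 128 CPM for KO hosts against 35.5, 63.8 and 62.1 CPM for WT hosts, with log2 0.93, SE 0.33, adjusted p = 0.431 in edgeR.

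The remaining members did not pass in CD8 T cells for host genotype. Smad7 stood at 241, 122 and 271 CPM for KO hosts against 207, 342 and 370.1 CPM for WT hosts, and KO marrow in KO host was the lowest while the other ranges overlapped (log2 -0.56, SE 0.48, adjusted p = 0.765 in edgeR). Smad3 was at 35.6, 1.72 and 5.84 CPM for KO hosts against 49.5, 8.81 and 8.79 CPM for WT hosts, high in both intact libraries (log2 -1.22, SE 0.58, adjusted p = 0.437). Tgfbr1 gave log2 -0.88, SE 0.38, adjusted p = 0.345, Tgfbr2 log2 -0.09, SE 0.21, adjusted p = 0.926 and Ski log2 -0.37, SE 0.25, adjusted p = 0.612 in edgeR. For marrow genotype 0 of 9 members were called in CD8 T cells, with 0.0803% of all genes called in edgeR (0.0573% higher and 0.0229% lower), and 0 members had an unadjusted p under 0.05 (305 of all genes did, and DESeq2 called 2).

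Of the 45 other genes of a TGF-beta pathway list, 29 could be tested in CD8 T cells, and 0 rose and 2 fell with KO host, beside 1.39% and 0.665% of all genes. Their median log2 value was -0.32, beside -0.0039 over all genes, and that of the 9 members -0.37. Id3, a target of TGF-beta and related signals that holds back effector differentiation, fell, at 10.9, 13.5 and 14.0 CPM for KO hosts against 24.7, 61.6 and 37.1 CPM for WT hosts (log2 -1.94, SE 0.28, adjusted p = 0.000943). Thbs1, which can activate latent TGF-beta, fell as well, at 21.8, 28.1 and 18.7 CPM for KO hosts against 66.6, 57.9 and 88.9 CPM for WT hosts (log2 -1.53, SE 0.26, adjusted p = 0.00397, edgeR). Thbs1 is abundant in macrophages, at 760.2, 808 and 837 CPM for KO hosts against 497, 1112 and 1309 CPM for WT hosts, and the part of free macrophage RNA in its CD8 T cell level was not tested. Thbs1 was called in 10 of 15 alternatives and Id3 in 11 of 15. In CD8 T clusters Thbs1 had log2 -0.40 (adjusted p = 0.772) and Id3 -1.42 (adjusted p = 0.473). Neither call was kept in cells without naive gene UMIs, where Id3 had log2 -1.50 (adjusted p = 0.189) and Thbs1 -1.07 (adjusted p = 0.727), nor was Id3 called without KO marrow in WT host, at log2 -1.36 (adjusted p = 0.428).

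In macrophages, the class with the most cells, neither host nor marrow genotype called any gene at all in edgeR (0 of 15016 for each, with 621 and 695 genes at an unadjusted p under 0.05, and 131 and 46 by DESeq2). Tgfbi was at 809.9, 1011 and 782 CPM for KO hosts against 644, 794 and 722 CPM for WT hosts, with log2 0.23, SE 0.12, adjusted p = 1.0 for host and log2 0.29, SE 0.12, adjusted p = 0.812 for marrow. KO marrow in KO host was the highest and intact WT the lowest library, and all 3 libraries with KO marrow lay above all 3 with WT marrow, while the host groups overlapped. Intact KO and KO marrow in KO host, with both compartments KO, are called both-KO below. This contrast against the other 4 libraries was set up because earlier results had shown those 2 apart, a choice for which its p-values make no allowance.

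In that contrast Tgfbi was higher, at 809.9 and 1011 CPM in the both-KO libraries and 782, 644, 794 and 722 CPM in the others. Both stood above all others, intact KO by a narrow margin over KO marrow in WT host, and the edgeR value was log2 0.48, SE 0.07, adjusted p = 0.0124. Of all genes 16.1% were called, 8.72% higher and 7.38% lower, so 3 calls among 9 members (1 higher, 2 lower) are to be read against a large background. Without KO marrow in KO host the Tgfbi value was log2 0.41 (adjusted p = 0.0672) and did not pass; over 12 alternatives the adjusted p ran from 1.73e-08 to 0.0672.

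Tgfbr1 was lower, at 228 and 71.6 CPM in the both-KO libraries and 129, 352, 119.5 and 112 CPM in the others. Intact KO lay below intact WT and KO marrow in KO host below the 3 other transplanted libraries, with overlap only between intact and transplanted libraries (log2 -0.59, SE 0.09, adjusted p = 0.0107, edgeR). The call held without each library in turn. Smad7 was lower too, at 53.7 and 40.9 CPM in the both-KO libraries and 89.8, 75.0, 76.9 and 71.3 CPM in the others, with no overlap (log2 -0.66, SE 0.15, adjusted p = 0.0363, edgeR). Its log2 value without KO marrow in KO host was -0.40 (adjusted p = 0.133), without KO marrow in WT host -0.68 (adjusted p = 0.0675), without WT marrow in KO host -0.60 (adjusted p = 0.0593) and in macrophage clusters -0.62 (adjusted p = 0.0685), none of which passed (adjusted p over 12 alternatives from 0.00136 to 0.133). Tgfbr2 (log2 -0.36, SE 0.11, adjusted p = 0.0691), Tgfb1 (log2 0.53, SE 0.28, adjusted p = 0.248), Itgav (log2 0.20, SE 0.23, adjusted p = 0.586), Ski (log2 -0.23, SE 0.08, adjusted p = 0.0983) and Smad3 (log2 0.32, SE 0.13, adjusted p = 0.149) did not pass in edgeR, nor did Itgb8, which was at 0.0516 to 0.299 CPM.

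**Figure D4:**
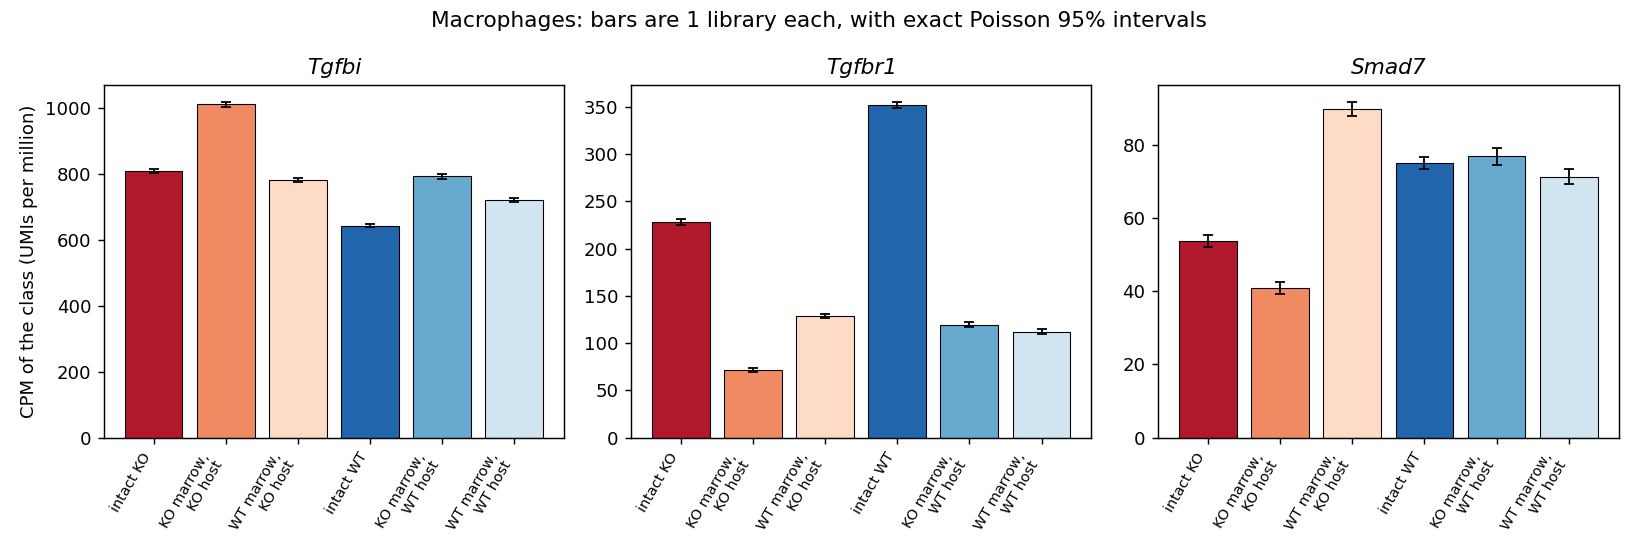
Levels of Tgfbi, Tgfbr1 and Smad7 in macrophages (CPM, linear axes from 0); each bar is 1 library with its exact Poisson 95% interval. Intact KO and KO marrow in KO host, the first and second bars, are the highest for Tgfbi and the lowest for Smad7, while for Tgfbr1 each is below the library of WT mice treated alike.

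Both-KO macrophages also differed in makeup. Cells with at least 2 UMIs of the interferon-induced chemokine gene Cxcl9 were 56.8% and 65.9% there and 1.46 to 9.62% in the other libraries. Among cells with 0 Cxcl9 UMIs Tgfbi was at 793, 964 and 779.7 CPM for KO hosts against 645, 789 and 722 CPM for WT hosts, where the both-KO libraries, listed first and second, were again the highest. Among cells with at least 2 Cxcl9 UMIs it was at 809, 1032 and 811 CPM for KO hosts against 622, 860.3 and 732 CPM for WT hosts, and intact KO lay inside the range of the others. For Smad7 the both-KO libraries were the lowest in both kinds of cell, at 47.9, 37.9 and 90.8 CPM for KO hosts against 75.8, 76.7 and 70.5 CPM for WT hosts with 0 Cxcl9 UMIs and 54.5, 40.5 and 81.4 CPM for KO hosts against 74.3, 84.4 and 91.2 CPM for WT hosts with at least 2. Tgfbr1 with 0 Cxcl9 UMIs was at 165, 55.8 and 129 CPM for KO hosts against 349, 119 and 112 CPM for WT hosts, each both-KO library below the others treated alike. T cell genes of the CD8 list (5 genes) summed to 6.23 and 24.8 CPM in both-KO macrophages and 2.03 to 5.79 CPM in the others. Genes of cDC1 cells (2 genes) summed to 6.56 and 4.89 CPM against 0.225 to 0.745 CPM. Macrophage genes of the gate were lowest in the both-KO libraries for Csf1r (539 and 583 against 687 to 750.2 CPM), Adgre1 (177 and 209 against 241 to 334 CPM) and Cd68 (396 and 436 against 475 to 558 CPM), while C1qa, C1qb and C1qc overlapped. The part of these genes in the Tgfbi, Tgfbr1 and Smad7 results was not tested.

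**Figure D5:**
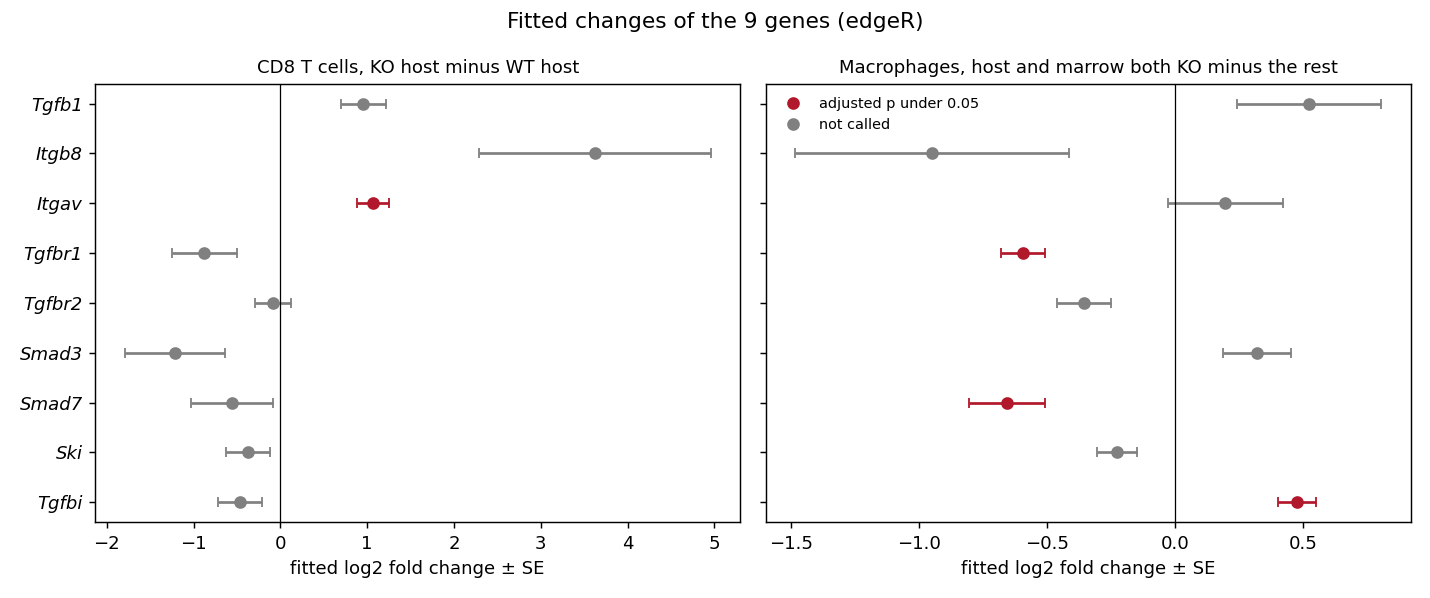
Fitted log2 fold change ± SE of the 9 genes from edgeR, for KO against WT host in CD8 T cells (left) and for the both-KO libraries against the other 4 in macrophages (right); red marks an adjusted p under 0.05. Itgav is called on the left, and Tgfbi, Tgfbr1 and Smad7 on the right; the panels have different axis ranges.

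Of the other pathway genes, 44 of 45 were tested in macrophages, and 7 rose and 5 fell in the both-KO contrast, beside 8.72% called higher and 7.38% lower of all genes, with a median log2 of 0.16 beside -0.01 over all genes and -0.23 over the 9 members. The ligand gene Inhba, which encodes an activin subunit, rose, at 75.2 and 91.5 CPM in the both-KO libraries and 13.3, 5.48, 17.2 and 28.7 CPM in the others (log2 2.96, SE 0.47, adjusted p = 0.0158, edgeR). It passed in 5 of 12 alternatives, and without intact KO, intact WT, KO marrow in KO host or KO marrow in WT host it did not (log2 2.29 to 3.86, adjusted p = 0.0614 to 0.0942). Tgfb3, another TGF-beta ligand, rose, at 39.0 and 38.1 CPM in the both-KO libraries and 16.9, 22.7, 18.1 and 16.8 CPM in the others (log2 1.10, SE 0.09, adjusted p = 0.00277, edgeR), and passed in all 12.

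The receptor genes Acvrl1 (log2 0.84 ± 0.11, SE) and Eng (0.99 ± 0.17), best known from endothelium, rose, as did Furin (0.53 ± 0.07), the protease that cuts the TGF-beta precursor, and Klf10 (0.60 ± 0.15), an early TGF-beta target. Id1 (0.999 ± 0.16), a target of related ligands, rose from a level of at most 8.47 CPM in the other libraries. Genes that fell were Pmepa1 (-0.63 ± 0.12), a feedback inhibitor induced by TGF-beta, Itgb5 (-0.62 ± 0.10), another partner of Itgav, Smurf2 (-0.36 ± 0.08), which marks receptors for degradation, and at low levels Ltbp4 (-1.20 ± 0.23) and Cdkn2b (-0.99 ± 0.17). Pmepa1 was at 521 and 487 CPM in the both-KO libraries and 974.6, 727, 904 and 862 CPM in the others, with no overlap. Of 12 alternatives, Acvrl1, Itgb5 and Furin were called under all, Eng under 11, Pmepa1 under 10, and Klf10 and Smurf2 under 6 each; Id1, Ltbp4 and Cdkn2b were not run under alternatives. Eng was not called without KO marrow in KO host (log2 0.78, adjusted p = 0.116), nor Pmepa1 without that library or WT marrow in KO host (log2 -0.60 to -0.40, adjusted p = 0.0559 to 0.0765). Klf10 (log2 0.34 to 0.60, adjusted p = 0.0868 to 0.107) and Smurf2 (log2 -0.40 to -0.34, adjusted p = 0.0717 to 0.0812) were not called when intact KO, intact WT, KO marrow in WT host or WT marrow in KO host was left out.

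Monocytes had the highest Tgfbi level and no host or marrow difference that passed. The values were 939.7, 1103 and 1462 CPM for KO hosts against 1061, 1298 and 1271 CPM for WT hosts, with KO and WT hosts overlapping (log2 0.03, SE 0.20, adjusted p = 0.992 for host and log2 -0.23, SE 0.20, adjusted p = 0.95 for marrow, edgeR). The smallest library held 13 monocytes, so the precision of this class is low. Of all genes 0.548% were called for host (0.474% higher and 0.0748% lower) and 0 of 4011 for marrow (195 at an unadjusted p under 0.05, 0 by DESeq2), and 0 of 8 tested members in either. At an unadjusted p under 0.05 in edgeR stood 1 of the 8 members for host, beside 370 of 4011 genes, and 3 of the 8 for marrow. Neutrophils had 197, 285 and 416 CPM for KO hosts against 371, 383 and 279 CPM for WT hosts for Tgfbi, with intact KO lowest, and cDC2 cells 189.8, 176 and 95.2 CPM for KO hosts against 277, 265 and 287 CPM for WT hosts.

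In the other classes tested, 0 members were called: 8 were tested in conventional CD4 T cells and in neutrophils and 5 in mature dendritic cells, for host and for marrow. For host the background was 0.0412% in conventional CD4 T cells, 0.121% in neutrophils and 0 in mature dendritic cells, and for marrow 0.144% in conventional CD4 T cells (0.0824% higher and 0.0618% lower) and 0 in the other 2 classes. At an unadjusted p under 0.05 for host stood 2 members in conventional CD4 T cells (Tgfb1 and Tgfbr1), 2 in neutrophils (Tgfb1 and Smad7) and 1 in mature dendritic cells (Smad7). Of all genes, 181 of 4852 in conventional CD4 T cells and 320 of 4126 in neutrophils stood there for host. For marrow the members at that threshold numbered 0, 0 and 1. DESeq2 called 3 genes of all for host in conventional CD4 T cells, 6 in neutrophils and 0 in mature dendritic cells. Where edgeR called 0 of all genes, 119 had an unadjusted p under 0.05 in mature dendritic cells for host, and for marrow 131 did there and 129 in neutrophils, with 0 and 1 called by DESeq2. Smad7 in mature dendritic cells was at 46.0, 47.3 and 61.4 CPM for KO hosts against 74.8, 225 and 88.2 CPM for WT hosts, every KO host below every WT host (log2 -1.38, SE 0.38, adjusted p = 1.0, edgeR).

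Over the 78 sums of class and library, the genes whose log2(CPM + 10) followed Itgb8 most closely, among 8089 genes with a mean of at least 10 CPM, were by Pearson r Foxp3 (0.83), Izumo1r (0.81), Neb (0.77), Tnfrsf4 (0.75), Syt11 (0.74). Foxp3 is the defining factor of regulatory T cells and was used to gate them. For Tgfbi they were Cd68 (0.93), Itgam (0.92), Ifi207 (0.90), Lrrc25 (0.90), Igsf6 (0.90), where Cd68 is a macrophage gene used in gating and Itgam a myeloid integrin chain. For Tgfb1 the closest were Lat2 (0.62), Rap1a (0.58), Med15 (0.56), Fbxo34 (0.55), Tatdn2 (0.54), with lower values. These points share libraries and classes, so the values describe the pattern and carry no test.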

How the data were processed

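Libraries were assigned to the 6 groups from the sample labels. The values are whole UMI counts per gene and cell barcode, deposited by the authors as filtered matrices. Per the file headers Cell Ranger 7.0.1 made the intact libraries (32285 genes) and 6.1.1 the transplanted ones (31053 genes); the submitters' processing notes name Cell Ranger, Seurat and mm10. Use of intron reads: not given in the sources used here.

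Cells with at least 500 UMIs, 200 genes and at most 15% mitochondrial UMIs were kept. Scrublet in scanpy 1.11.5 called 0 to 4 doublets per library by its own threshold, so in each library the top 6% by score were dropped. Classes were gated on marker UMIs, macrophages by C1q genes with Csf1r, Adgre1 or Cd68: 31638 of 37996 cells fell in 1 class, 6199 in none and 159 in more than 1, and the last 2 kinds were left out. Leiden clusters (27, leidenalg 0.10.2) gave the alternative classes.

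UMIs were summed per class and library and tested with edgeR 4.0.16 (quasi-likelihood, TMM, filterByExpr, R 4.3.3) with terms for transplantation, host and marrow genotype (2 residual degrees of freedom), or for transplantation and both KO (3). The model has no host by marrow interaction. P-values were Benjamini-Hochberg adjusted over all genes tested per class and term, with a threshold of 0.05; each SE comes from the fitted value and its test statistic. Classes with at least 20 cells in every library were tested, plus monocytes. DESeq2 1.42.0 was an alternative. The fits were tested on simulated data for genes with higher counts and a fixed dispersion. Sparse genes such as Itgb8 in CD8 T cells were not covered by that test. Exact binomial (Clopper-Pearson) and Poisson 95% intervals, and limits from 3 counts, cover only the counting error. Exact permutation over libraries was used for shares.

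Named besides the members were pathway genes past the threshold with a mean of at least 10 CPM, up to 10 per class and contrast, the 5 genes closest to Itgb8, Tgfbi and Tgfb1, Mtdh and markers; Id1, Ltbp4 and Cdkn2b were named after their values were seen. The members, gene lists and contrasts were chosen with earlier results of these data known. Alternatives were another normalisation, DESeq2, no count filter (at least 1 UMI), no doublet removal, clusters and each library left out; those chosen after seeing the data were the transplanted libraries alone, CD8 T cells with and without UMIs of Lef1, Ccr7 or Tcf7, and CD8 T clusters without CD4-gated cells. Another planned split of CD8 T cells is not reported here.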

Additional observations from a re-analysis of the deposited data

Results flagged for a closer look

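Pairs of KO and WT host with the same labelled marrow or intact status were compared between macrophages or monocytes and CD8 T cells, and there 2 members moved in opposite directions. Smad3 was higher in the KO host in all 3 pairs in monocytes (mean log2 0.78) and lower in all 3 in CD8 T cells (mean log2 -0.44), a gap of 1.22. This difference was not tested, and Smad3 in monocytes was at 96.6, 13.1 and 10.6 CPM for KO hosts against 64.3, 0 and 3.48 CPM for WT hosts, from 13 cells in the smallest library. Tgfbi was higher in the KO host in all 3 pairs in macrophages (mean log2 0.26) and lower in all 3 in CD8 T cells (mean log2 -0.37), a gap of 0.63, also not tested. The CD8 T cell level of Tgfbi is near that of free macrophage RNA. In other classes, Smad3 was also lower in all 3 pairs in conventional CD4 T cells, and Itgb8, higher in all 3 in CD8 T cells, was lower in all 3 in mesenchymal-like cells.

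Cells that entered no class held 48.8% of all 1124 Itgb8 UMIs, more than any class. Of these 548 UMIs 85.9% were in 1694 cells of mesenchymal clusters, which had 644 CPM of Krt8, 542 CPM of Sparc and 8.12 CPM of Ptprc. Their Itgb8 level was 7.86, 7.58 and 11.6 CPM for KO hosts against 14.5, 12.4 and 11.7 CPM for WT hosts. The gated mesenchymal-like class held 22.6% of the Itgb8 UMIs, regulatory T cells 9.43%, macrophages 8.63% and CD8 T cells 4.00%.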

How the results depend on the processing

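No paired analysis was possible because each group has 1 library and the labels carry no replicate numbers; libraries were matched only on intact status and labelled marrow or host, which the terms of the model hold. Counts of called genes moved most. In CD8 T cells the 179 genes called for host were 115 by DESeq2, 453 without a count filter, 52 in clusters, 69 in clusters without CD4-gated cells, 52 and 66 in cells without and with naive gene UMIs, and 100 to 531 without 1 library each (lowest without KO marrow in KO host, highest without WT marrow in KO host). For marrow, 7 became 2, 52, 4, 3, 4 and 1 under the same settings, 19 without doublet removal, 4 in the transplanted libraries alone and 3 to 136 without 1 library each. In macrophages the 2418 both-KO genes became 3629 by DESeq2, 1507 in the transplanted libraries alone and 1086 to 2521 without 1 library each. The 0 for host became 131, 1 and 0 to 33 in the same order, and the 0 for marrow 46, 2 and 0 to 23, with 1 without a count filter. In monocytes the 22 for host became 118 without a count filter, 88 in clusters, 53 in the transplanted libraries alone and 14 to 76 without 1 library each, and the 0 for marrow 14, 3, 2 without doublet removal, and 0 to 19 without 1 library each. Calls of members over classes and both factors were 1 in all. They became 3 without a count filter, 2 in clusters and 1 to 5 without 1 library each. Calls over all genes moved under the same settings, from 179 to 453, 52 and 100 to 531 in CD8 T cells for host. The changed member counts are therefore not read as a result about the members. The causes were not tested.

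For single members, Itgav in CD8 T cells (log2 1.07 for host) was weaker in clusters (0.65), in clusters without CD4-gated cells (0.81) and in cells without naive gene UMIs (0.47), and 1.05 to 1.10 without 1 library each. Itgb8 for host passed in clusters alone (4.14) and was 1.03 to 4.21 without 1 library each, and for marrow -2.59 to 1.23, positive without WT marrow in KO host. It was removed by the count filter, and gave no value, in cells with or without naive gene UMIs, in the transplanted libraries alone, and without intact KO, KO marrow in KO host or KO marrow in WT host. Tgfbi without 1 library each was 0.41 to 0.48 for both KO in macrophages, 0.07 to 0.39 for host (lowest without KO marrow in WT host, highest without WT marrow in KO host) and 0.12 to 0.45 for marrow there (the same libraries in reverse), never called for either, and in monocytes -0.25 to 0.30 for host (negative without WT marrow in KO host, and -0.04 leaving out WT marrow in WT host) and -0.498 to 0.053 for marrow (positive without WT marrow in KO host). Comparisons between classes stayed at 0 with 1 CPM added and in clusters. For the 15 other gene results named, 148 of 189 values under alternatives kept their direction and side of the threshold, 35 lost the call, 6 gained it and 0 reversed. With 1 library per group and 45 Itgb8 UMIs in CD8 T cells, differences in that gene are near the limit of the depth.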

Other observations

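Itgav in regulatory T cells was higher than in any other class in each library, at 1433, 391 and 485 CPM for KO hosts against 2085, 406 and 772 CPM for WT hosts, and both intact libraries were above the transplanted ones. The class was not tested, with 4 cells in WT marrow in KO host.

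In cells of the CD8 T gate with a UMI of Havcr2, the gene of the exhaustion marker TIM-3, 4 libraries had at least 20 cells. There Itgav was at 457, 156 and 149 CPM for KO hosts against 95.7 CPM for the WT host given KO marrow. Such cells were 25.3, 39.4 and 38.6% of gated CD8 T cells of KO hosts and 13.3% of those of that WT host.

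Cycling macrophages, with at least 2 UMIs of Mki67 or Top2a, had more Tgfbi than all macrophages in each library, at 963, 1144 and 861 CPM for KO hosts against 765, 945 and 772 CPM for WT hosts.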
